A study of Mus musculus with 16 samples.

Results

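The 7 genes described here are Cyp1b1 and 6 other genes of the aryl hydrocarbon receptor pathway, Cyp1a1, Ahr, Ahrr, Arnt, Nqo1 and Tiparp. They were taken as all non-control probes of the array whose RefSeq accession belongs to 1 of these symbols, which gave 11 probes, out of 27656 probes for 20972 named genes. Cyp1b1 was chosen by its rise after Ptn_VP64 in these same arrays, so its values in comparisons with Ptn_VP64 are a description and carry no test. The other 6 genes were taken because they code for the receptor, its partner, its repressors or its best known targets, to ask whether other receptor targets accompany that rise.

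E14, a line of mouse embryonic stem (ES) cells, was used, in medium with serum and LIF, a cytokine that keeps such cells undifferentiated. All groups were transiently transfected with a plasmid by lipofection, sorted for eGFP fluorescence 24 h later, and harvested at 48 h. The EGFP group received the fluorescent protein. The other 3 groups received a TALE, a designed DNA-binding protein, named for Ptn, the gene of the growth factor pleiotrophin, written Ptn(TALE)VP64, Ptn(TALE)DEL and Ptn(TALE)Delta in the labels and Ptn_VP64, Ptn_DEL and Ptn_Delta below. VP64 is a strong synthetic transcriptional activator and DEL is an acidic peptide known to open chromatin, while the labels do not say what Delta carries. Each group has 4 single-colour Agilent arrays, which stand for 2 biological and 2 technical replicates without a statement of which is which, so the number of independent samples limits the precision of every value.

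The aryl hydrocarbon receptor, coded by Ahr, is a transcription factor of the bHLH-PAS family that waits in the cytoplasm with heat shock proteins and other chaperones. When it binds a ligand such as dioxin or a tryptophan product, it enters the nucleus, pairs with the protein of Arnt and binds the core motif GCGTG near its target genes. Cyp1a1 and Cyp1b1, cytochrome P450 enzymes that oxidise xenobiotics and oestrogens, are its classic targets, and Ahrr and Tiparp are targets whose products repress the receptor in turn. Nqo1, a quinone reductase, answers both to this receptor and to NRF2, the regulator of the antioxidant response. Cyp1b1 is also expressed in many mesenchymal cells independently of added ligands.

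The 250 bases before the annotated start of each gene show where that core motif lies in the genes the question turns on. The windows are those of RefSeq on GRCm38.p6, given 5′ to 3′ along the gene, and 6 of the 7 genes matched an entry; Ahr did not. Capitals mark GCGTG, or CACGC where the motif lies on the opposite strand.

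Cyp1b1, chr17:79715062-79715311, minus strand: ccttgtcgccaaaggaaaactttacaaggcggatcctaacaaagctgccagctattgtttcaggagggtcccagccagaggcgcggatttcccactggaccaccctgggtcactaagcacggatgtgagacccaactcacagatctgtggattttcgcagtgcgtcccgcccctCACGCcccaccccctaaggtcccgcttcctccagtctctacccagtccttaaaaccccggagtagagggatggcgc

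Cyp1a1, chr9:57697363-57697612, plus strand: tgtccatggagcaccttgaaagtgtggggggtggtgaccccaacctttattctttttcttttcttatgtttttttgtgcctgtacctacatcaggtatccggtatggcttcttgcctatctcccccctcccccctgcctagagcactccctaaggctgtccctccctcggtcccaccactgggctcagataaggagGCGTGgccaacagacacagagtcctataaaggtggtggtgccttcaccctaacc

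Ahrr, chr13:74292332-74292581, minus strand: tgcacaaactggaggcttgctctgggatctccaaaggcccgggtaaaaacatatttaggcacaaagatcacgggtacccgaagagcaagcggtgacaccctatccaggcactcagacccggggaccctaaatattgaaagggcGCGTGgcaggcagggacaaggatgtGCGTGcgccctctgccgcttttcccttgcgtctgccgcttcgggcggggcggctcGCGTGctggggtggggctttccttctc

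Cyp1b1 held 1 core motif, on the strand opposite to the gene, from 76 to 72 bases before the start. Cyp1a1 also held 1, on its own strand and 54 to 50 bases before the start. Ahrr held 3, which began at positions -107, -82 and -27 relative to its start, and the nearest of them also matched the longer form TNGCGTG. Tiparp and Arnt each held 1, and Nqo1 held none in this window. Both strands were searched, and 28.2% of all 32851 RefSeq windows of this length held GCGTG, while 4.10% held TNGCGTG. The motif TGANNNNGC, the core to which NRF2 binds, was found once in Tiparp, once in Ahrr and 2 times in Arnt, against 35.2% of all windows with at least 1 match. It was not found in Nqo1, Cyp1b1 or Cyp1a1. The shorter hypoxia motif ACGTG was in none of the 6 windows, against 16.6% of all windows. Cyp1b1 and Cyp1a1 thus had the same number of matches of a common motif in these windows. Bases outside the windows were not searched, so sites farther from the start would be missed. Whether these motifs have a part in the level of any gene was not tested.

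**Figure D1:**
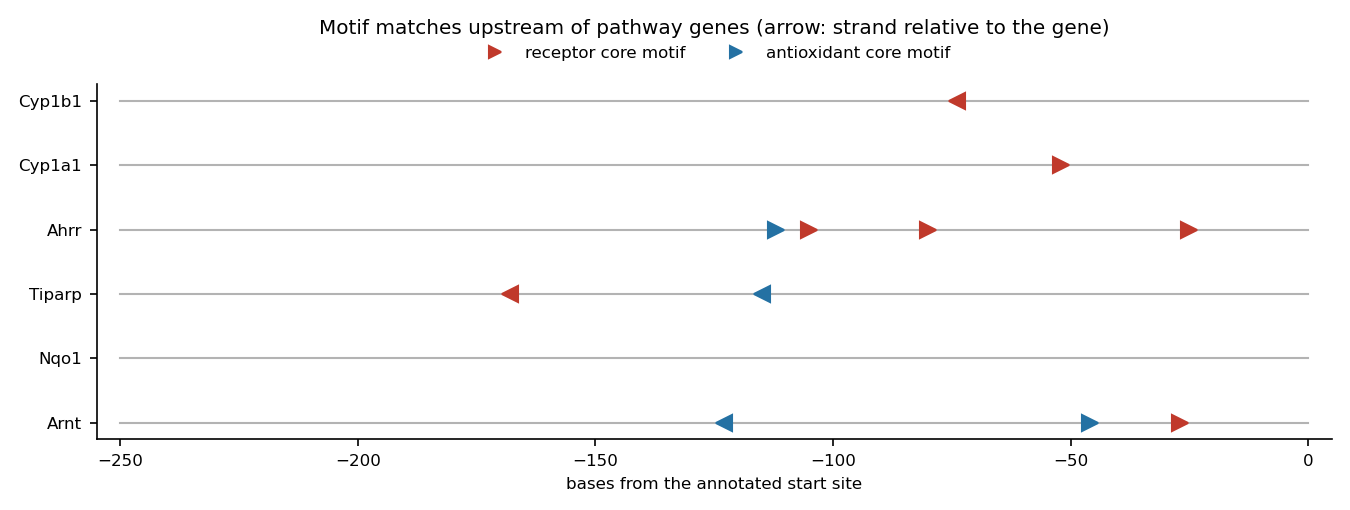
Matches of the receptor core motif (red) and the antioxidant core motif (blue) in the 250 bases before the annotated start of 6 pathway genes; the x axis gives bases from the start site and arrows point right for the gene's own strand. Cyp1b1 and Cyp1a1 have 1 receptor motif each, Ahrr has 3, and Nqo1 has neither motif.

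Every level below is the log2 of a probe's background-subtracted signal minus the log2 of the 75th percentile of its array, so a level of 0 is the signal of that percentile. Levels compare arrays for the same probe and do not rank different genes. Each spot is called well above background or not by the scanner software, which also marks spots of uneven brightness. The share of spots called well above background ran from 27.1 to 43.8% over the arrays. The 75th percentile ranged from 209.3 on EGFP replicate 2 to 1253 on Ptn_VP64 replicate 1. Broad bright or dim patches covered 0.641 to 35.6% of the spots of an array, and no Cyp1b1 spot lay in one. Replicates 1 and 2 of all groups were on slide 1 and replicates 3 and 4 on slide 2. Each group kept the same column of both slides, so the position on the slide and the construct cannot be told apart. ES cell markers were well above background on all 16 arrays for 10 of 10 genes. The target gene Ptn was higher after Ptn_VP64 by 4.87 ± 1.04 log2 units (SE; limma adjusted p = 0.692) in the planned test defined below, and by 4.37 ± 0.84 (limma adjusted p = 0.0305) with patch-corrected arrays.

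Cyp1b1 was high on all 4 arrays of Ptn_VP64 and lowest with EGFP. Its 1 probe, A_51_P255456, gave levels of 1.42, 0.44, 1.14 and 0.03 in Ptn_VP64 replicates 1 to 4. In Ptn_DEL it gave -1.42, -0.30, -1.57 and -2.55, and in Ptn_Delta -0.87, -3.09, -1.05 and -2.36. In EGFP the levels were -1.87, -2.73, -4.29 and -3.31, none of them well above background, whereas the spot was well above background on all 12 arrays of the other groups. The lowest Ptn_VP64 array thus lay above the highest of the 12 other arrays, at 0.03 against -0.30. Of all 12881 genes measured, 40 had this order, or 0.311%, and none of Ahr, Arnt, Nqo1 and Tiparp was among them. That order belongs to the rise by which Cyp1b1 was chosen, and nothing is read from it.

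Cyp1b1 was higher in Ptn_VP64 than in EGFP on both slides. With all spots kept, the mean level was 0.76 ± 0.64 in Ptn_VP64, -1.46 ± 0.92 in Ptn_DEL, -1.84 ± 1.06 in Ptn_Delta and -3.05 ± 1.01 in EGFP (SD, n = 4 arrays each). The 3 spots marked as uneven were those of Ptn_VP64 replicates 2 and 4 and of Ptn_DEL replicate 2, the lower spots of Ptn_VP64 and the highest of Ptn_DEL. Without them the fitted difference of Ptn_VP64 from EGFP was 4.33 ± 0.92 log2 units (SE), with 2 Ptn_VP64 arrays left, and within slides it was 3.72 on slide 1 and 4.94 on slide 2. Each of these within-slide values rests on 1 unmarked Ptn_VP64 array, replicate 1 or replicate 3. Because EGFP had no signal well above background, each EGFP array was set at the higher of 2 levels for a fold. These were its own level and the lowest signal well above background on that array. On that basis Cyp1b1 was 11.1-fold higher in Ptn_VP64 than in EGFP, 7.75-fold when marked spots were kept, and 15.6-fold after patch correction. These folds are not strict lower limits, since spots brighter than the set level could also fail to stand well above background. On EGFP replicate 2, for example, an Ahr spot at -0.87 was not well above background. The difference of Ptn_VP64 from Ptn_DEL was 3.30 ± 0.92 and from Ptn_Delta 3.12 ± 0.92 (SE). With marked spots kept the difference from Ptn_DEL was 2.22.

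Cyp1b1 in Ptn_DEL and Ptn_Delta stood between the other groups. These comparisons share the 4 EGFP arrays with the rise by which it was chosen, so they are not independent of that choice. The planned test takes the 4 arrays of a group as 2 samples, by each of the 3 ways of pairing them, and fits limma across all genes each time. Per gene the largest p was adjusted by Benjamini-Hochberg over all genes, with 0.05 as the threshold for a call. Cyp1b1 was 1.03 ± 0.75 higher in Ptn_DEL than in EGFP (SE; limma adjusted p = 1.00) and 1.21 ± 0.75 higher in Ptn_Delta (adjusted p = 0.977), and neither passed. With EGFP set at the raised level described above, the folds were 1.27 for Ptn_DEL and 1.28 for Ptn_Delta. They were 1.66 and 1.28 with marked spots kept, and 1.72 and 1.78 after patch correction. Because they rest on that raised level, these folds do not show that the differences were small. A second test used levels corrected for the patches, with all 16 arrays entered singly beside a term for the slide, which counts technical repeats as replicates and so gives p-values that are too small. There the differences were 1.21 ± 0.50 in Ptn_DEL (limma adjusted p = 0.58) and 1.23 ± 0.46 in Ptn_Delta (adjusted p = 0.445). Ptn_DEL and Ptn_Delta did not differ beyond their spread, at 0.07 ± 0.62 (limma adjusted p = 1.00). In descending order of Cyp1b1 level the groups were Ptn_VP64, Ptn_DEL, Ptn_Delta and EGFP with all spots kept. Without the marked spots the means of Ptn_DEL and Ptn_Delta were nearly equal, at -1.85 and -1.84. They were -1.94 and -1.89 with patch correction as well, so no order of these 2 groups is given.

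**Figure D2:**
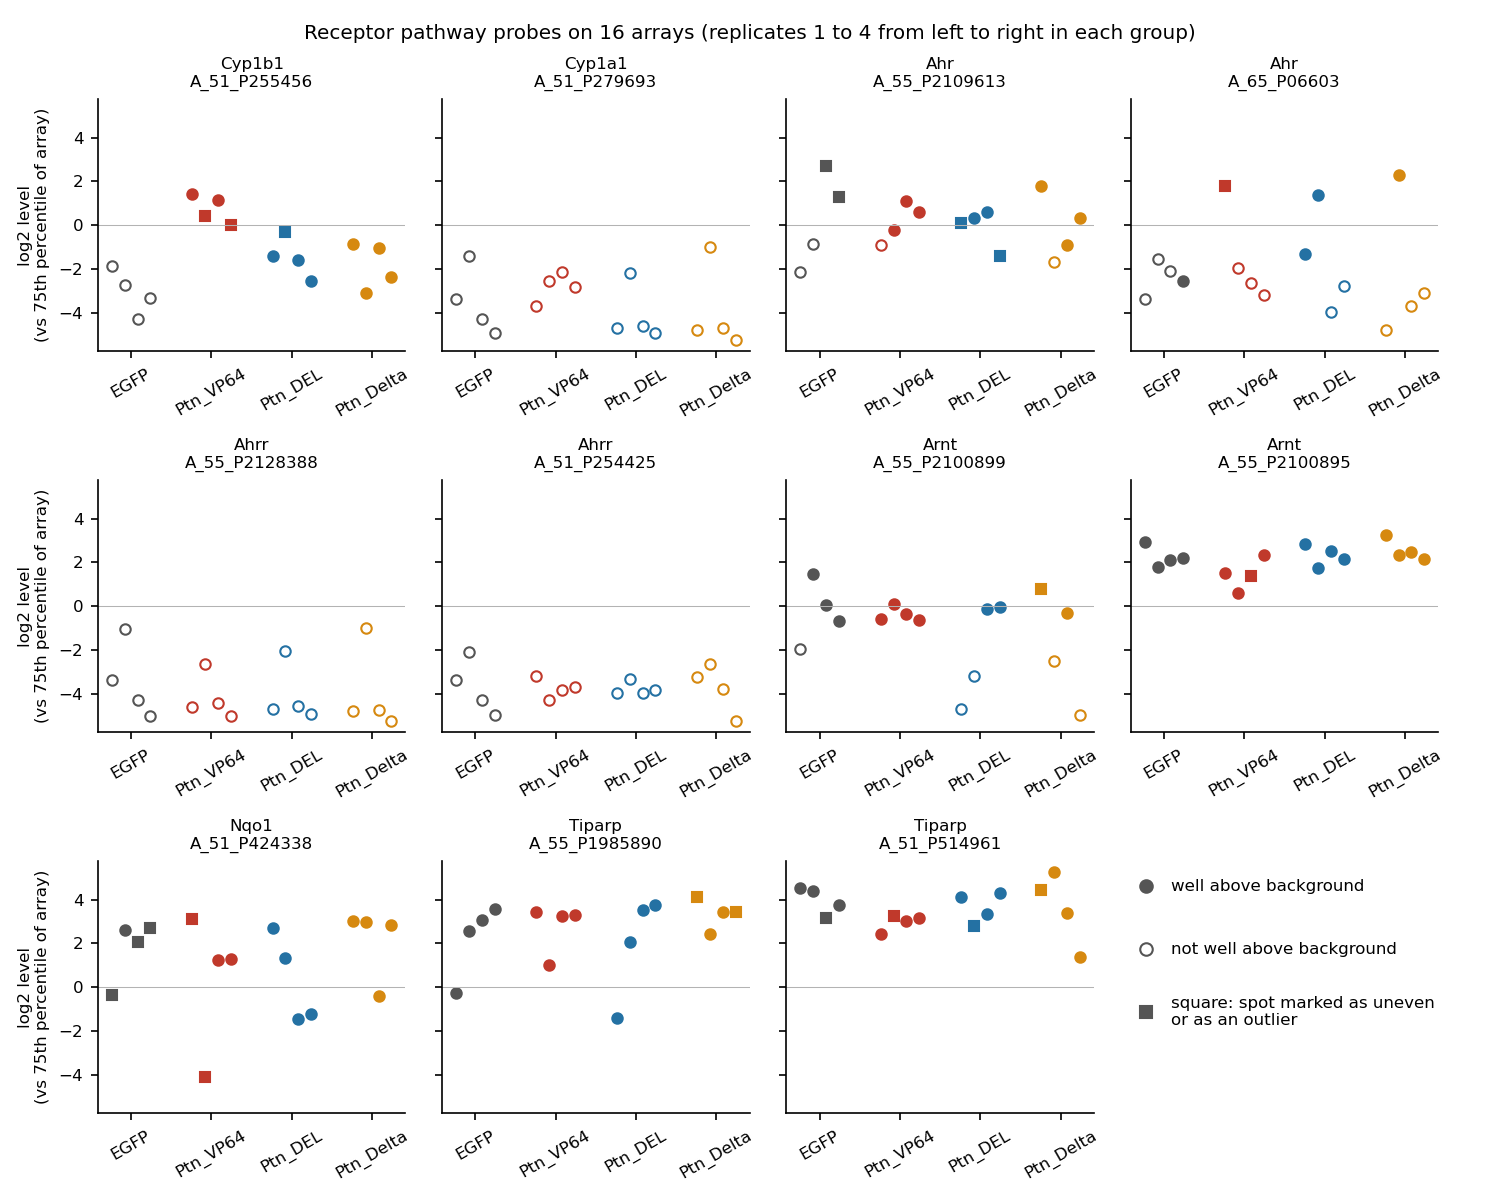
Levels of all 11 probes of the 7 genes on the 16 arrays, as log2 signal relative to the 75th percentile of the array (y axis), by group (x axis); open symbols are not well above background and squares are spots marked as uneven. Cyp1b1 is highest on the 4 Ptn_VP64 arrays, with levels of 0.03 to 1.42, and Cyp1a1 and Ahrr are open on all 16 arrays.

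Cyp1a1, the target most used as a readout of the receptor, was not well above background on any of the 16 arrays. Its levels were -3.70, -2.57, -2.14 and -2.82 in Ptn_VP64 and -3.37, -1.42, -4.29 and -4.91 in EGFP. In Ptn_DEL they ran from -4.91 to -2.16 and in Ptn_Delta from -5.23 to -0.99. The Ptn_VP64 levels lay inside the range of the EGFP levels. With both sides below background, no fold is given. Cyp1a2, its close relative on the same receptor, also gave no signal well above background on any array.

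Ahrr, the repressor that competes with the receptor for Arnt, was not well above background on any array with either of its 2 probes. Its probe A_55_P2128388 ranged from -5.23 to -0.99 and A_51_P254425 from -5.23 to -2.10. For both probes the 4 groups overlapped. Cyp1a1 and Ahrr therefore did not pass the filter, which required a signal well above background on at least 4 arrays, and 5 of the 7 genes were tested. A probe below background sets a limit only on what this array could detect.

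Tiparp, an ADP-ribosyltransferase that is a direct receptor target and limits receptor activity, was well above background on all 16 arrays and was not called after Ptn_VP64. Its brighter probe, A_51_P514961, gave 2.42, 3.28, 3.03 and 3.16 in Ptn_VP64 and 4.52, 4.38, 3.17 and 3.74 in EGFP. The levels were 4.13, 2.82, 3.35 and 4.32 in Ptn_DEL and 4.45, 5.25, 3.38 and 1.38 in Ptn_Delta. On this probe 3 of 4 Ptn_VP64 arrays lay below the lowest EGFP array, and 1 lay inside the EGFP range. The difference of Ptn_VP64 from EGFP was -1.34 ± 0.88 in the planned test (SE; limma adjusted p = 1.00). The second probe, A_55_P1985890, gave 3.42, 1.02, 3.25 and 3.32 in Ptn_VP64 and -0.27, 2.58, 3.07 and 3.57 in EGFP. This probe stood for the gene after patch correction, where the difference was -0.19 ± 0.31 (limma adjusted p = 0.834) with 2 Ptn_VP64 arrays and 3 EGFP arrays. With all spots kept and no patch correction, the means of this probe ran the other way from those of the brighter one, at 2.75 ± 1.16 in Ptn_VP64 against 2.24 ± 1.72 in EGFP (SD, n = 4 arrays each), so no direction is given for Tiparp.

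Nqo1 was well above background on all 16 arrays, with widely spread levels. Levels were 3.13, -4.08, 1.25 and 1.27 in Ptn_VP64 and -0.33, 2.61, 2.07 and 2.68 in EGFP. In Ptn_DEL they were 2.69, 1.35, -1.46 and -1.22, and in Ptn_Delta 3.02, 2.98, -0.38 and 2.85. All groups overlapped, and the spots ranged from -4.08 to 3.13. Of its 16 spots, 5 were marked and 5 lay in patches, and 1 unmarked EGFP array was left. The planned difference of Ptn_VP64 from EGFP was 1.22 ± 1.27 (SE; limma adjusted p = 1.00). That sign is the fit's and rests on its slide term, since the unmarked arrays of the groups lay on different slides, and their plain means ran the other way, 1.26 in Ptn_VP64 against 2.61 in EGFP. With marked spots kept the difference was -1.36 ± 1.23, so no direction is given for Nqo1. Too few arrays were left for a test after patch correction.

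Ahr itself was weakly measured. Its brighter probe, A_55_P2109613, was well above background on 12 of 16 arrays, with levels of -0.92, -0.22, 1.09 and 0.60 in Ptn_VP64 and -2.12, -0.87, 2.71 and 1.30 in EGFP. The 2 higher EGFP spots were marked as uneven, and the other 2 were not well above background. The Ptn_VP64 levels lay inside the EGFP range, and the planned difference was 1.41 ± 0.89 (SE; limma adjusted p = 1.00), against -0.12 ± 1.01 with marked spots kept. Levels in Ptn_DEL were 0.10, 0.33, 0.59 and -1.38, and in Ptn_Delta 1.79, -1.68, -0.92 and 0.33. The other probe, A_65_P06603, was well above background on 5 arrays and ranged from -4.76 to 2.32. After patch correction it stood for the gene, with a difference of 1.17 ± 1.72 (limma adjusted p = 0.802). The plain means of that probe ran the other way, -3.15 in Ptn_VP64 (n = 2) against -2.54 in EGFP (n = 4), so no direction is given for Ahr.

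Arnt, whose product is the partner both of the receptor and of the hypoxia factors, was the most evenly measured gene of the 7 and was well above background on all 16 arrays. Its brighter probe, A_55_P2100895, gave 1.52, 0.60, 1.36 and 2.35 in Ptn_VP64 and 2.95, 1.82, 2.10 and 2.20 in EGFP. It gave 2.85, 1.76, 2.53 and 2.18 in Ptn_DEL and 3.26, 2.33, 2.48 and 2.16 in Ptn_Delta. On 3 of 4 Ptn_VP64 arrays the level was below every EGFP array, and the fourth was inside the EGFP range. The difference was -0.56 ± 0.65 in the planned test (SE; limma adjusted p = 1.00) and -0.30 ± 0.24 after patch correction (limma adjusted p = 0.605). The second probe, A_55_P2100899, was well above background on 11 arrays, with means of -0.36 ± 0.35 in Ptn_VP64 and -0.29 ± 1.42 in EGFP (SD, n = 4).

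Counted together, 0 of the 4 tested genes besides Cyp1b1 were called between Ptn_VP64 and EGFP in the planned test, where limma called 0% of all genes and 495 of 12837 had an unadjusted p under 0.05. None of these 4 was among the 495. The patch-corrected, unaveraged test called 363 of 11283 genes, or 3.22%, and 0 of the 3 genes it could test besides Cyp1b1. A share of 0 among so few genes is not different from that background. Between Ptn_DEL and EGFP 0 of 5 genes were called in the planned test against 0% of all genes, and 0 of 4 with patch correction against 0%. Between Ptn_Delta and EGFP the counts were 0 of 5 against 0%, and 0 of 4 against 0.0266%. Ptn_VP64 against Ptn_DEL gave 0 besides Cyp1b1 against 0% of all genes, and with patch correction 0 against 0.833%. Ptn_VP64 against Ptn_Delta gave 0 against 0% and 0 against 0.638%, and Ptn_DEL against Ptn_Delta gave 0 against 0% in both tests. The comparisons with EGFP share its 4 arrays.

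In Ptn_DEL and Ptn_Delta the measured genes other than Cyp1b1 were likewise without a call. Ahr differed from EGFP by 1.96 ± 1.08 in Ptn_DEL and by 1.16 ± 0.89 in Ptn_Delta, Arnt by 0.06 ± 0.67 and 0.29 ± 0.67, Nqo1 by -0.99 ± 0.97 and -0.49 ± 0.91, and Tiparp by -0.12 ± 0.88 and -0.29 ± 0.88 (log2 ± SE; limma adjusted p from 0.977 to 1.00). Each of these was within 2 SE of 0. Standard errors of 0.67 to 1.08 mean that a difference of 1 log2 unit could not be told from 0 here.

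**Figure D3:**
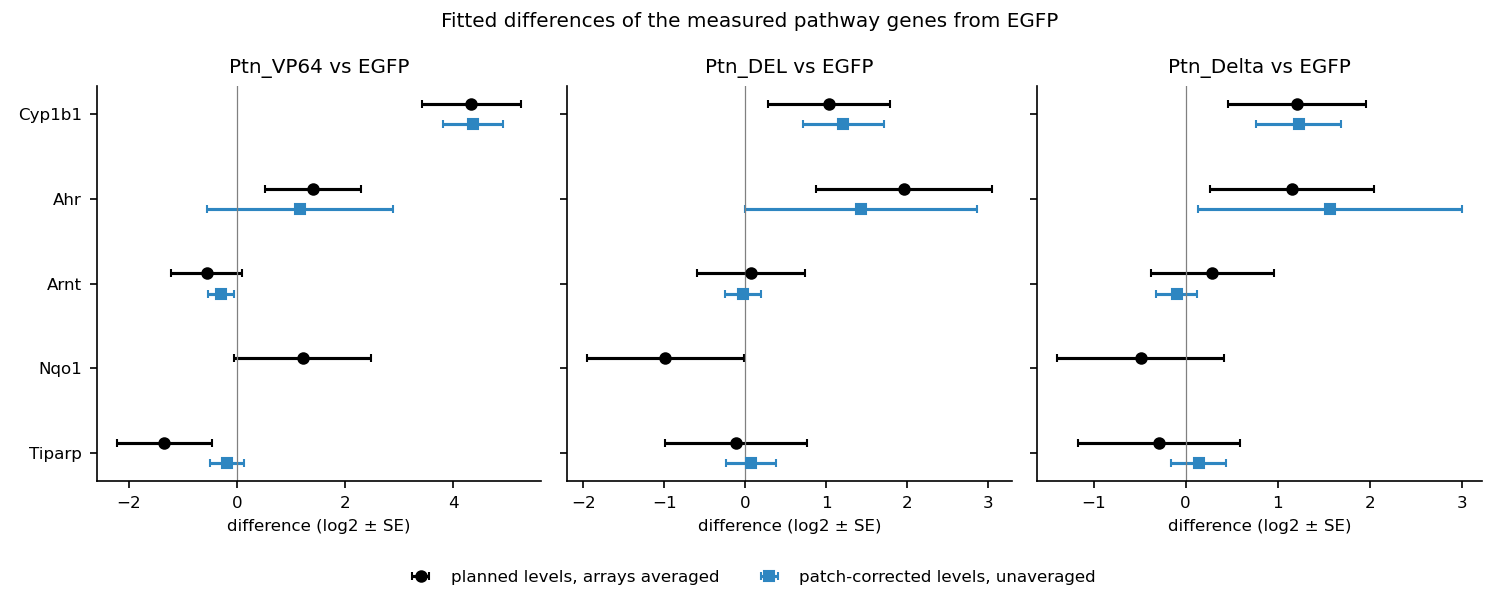
Fitted log2 differences from EGFP (x axis, ± SE) of the 5 measured pathway genes (y axis) in Ptn_VP64, Ptn_DEL and Ptn_Delta; circles are the planned test and squares the patch-corrected, unaveraged test, which has no value for Nqo1. Cyp1b1 in Ptn_VP64, the value by which it was chosen, is at 4.33 and 4.36, and the other genes' differences lie between -1.34 and 1.96.

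A wider list of 22 receptor targets was compared between Ptn_VP64 and EGFP. Of 21 with a probe, 7 were not well above background on any array (Cyp1a1, Cyp1a2, Ahrr, Ugt1a6a, Xdh, Ereg and Ido1), and 10 were tested. In the planned test 7 were higher and 3 lower, with a median difference of 0.40 against 0.07 over all genes, of which 55.5% were higher. None was called. For this list and those below, the share of all genes called was 0% in the planned test and 3.22% after patch correction. The share of all genes that were higher was 55.5% and 51.0%. Cyp1b1, chosen by this difference, is in that count, and without it 6 were higher and 3 lower, with a median of 0.21. With Nqo1 at its value with marked spots kept, these became 5 and 4, with a median of 0.13. The lower genes include Tiparp, for which no direction is given. After patch correction 4 of 9 were higher and 5 lower, with a median of -0.06 against 0.01 over all genes, and none of the 8 genes besides Cyp1b1 was called. Without Cyp1b1 3 were higher and 5 lower there, with a median of -0.12. Nedd9, a scaffold protein of focal adhesions, stood next to Cyp1b1, at 3.07 ± 1.12 in the planned test (limma adjusted p = 1.00) and 1.14 ± 1.02 after patch correction (adjusted p = 0.652). It was well above background on 3 arrays of Ptn_VP64, 1 of EGFP, 0 of Ptn_DEL and 1 of Ptn_Delta, so it passed the filter only with the Ptn_VP64 arrays. Cyp2s1, another P450 target, was well above background on all 16 arrays and differed by 0.21 ± 0.73, and by 0.70 ± 0.29 after patch correction (limma adjusted p = 0.283). Aldh3a1, an aldehyde dehydrogenase of the classic receptor battery, differed by 1.11 ± 0.90, and by 0.09 ± 0.46 after patch correction (limma adjusted p = 0.957).

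The receptor complex gave 8 tested genes of 9, with 2 higher, 6 lower, none called and a median of -0.03. Ahr, at 1.41, is among the higher and Tiparp, at -1.34, among the lower, though no direction is given for either. Hsp90aa1 and Hsp90ab1, the chaperones that hold the receptor, differed by -0.03 ± 0.64 and 0.34 ± 0.72. Ptges3, the co-chaperone p23, differed by -0.0041 ± 0.56. After patch correction 2 of 7 were higher and 5 lower, none was called, and Arnt2, the relative of Arnt, had the smallest p at -1.09 ± 0.52 (limma adjusted p = 0.337). Ahr, at 1.17, is again among the higher there, and Tiparp, at -0.19, among the lower.

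The NRF2 battery, which shares Nqo1 with the receptor, had 9 genes higher and 9 lower of 18 tested, none called, with a median of -0.00037. Nqo1 is 1 of the 9 higher, and at its value with marked spots kept 8 were higher and 10 lower, with a median of -0.14. After patch correction 4 were higher and 13 lower, with a median of -0.26 and none called. Srxn1, a sulfiredoxin, had the smallest p there, at -1.05 ± 0.27 (limma adjusted p = 0.0795). By the planned test the genes with the smallest p were Tkt, a pentose phosphate enzyme at -1.15 ± 0.72, Hmox1, heme oxygenase, at 1.56 ± 1.28, and Gsr, glutathione reductase, at -0.83 ± 0.71 (limma adjusted p = 1.00 each). After patch correction these were at -0.50 ± 0.21, -0.27 ± 0.39 and -0.32 ± 0.18.

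**Figure D4:**
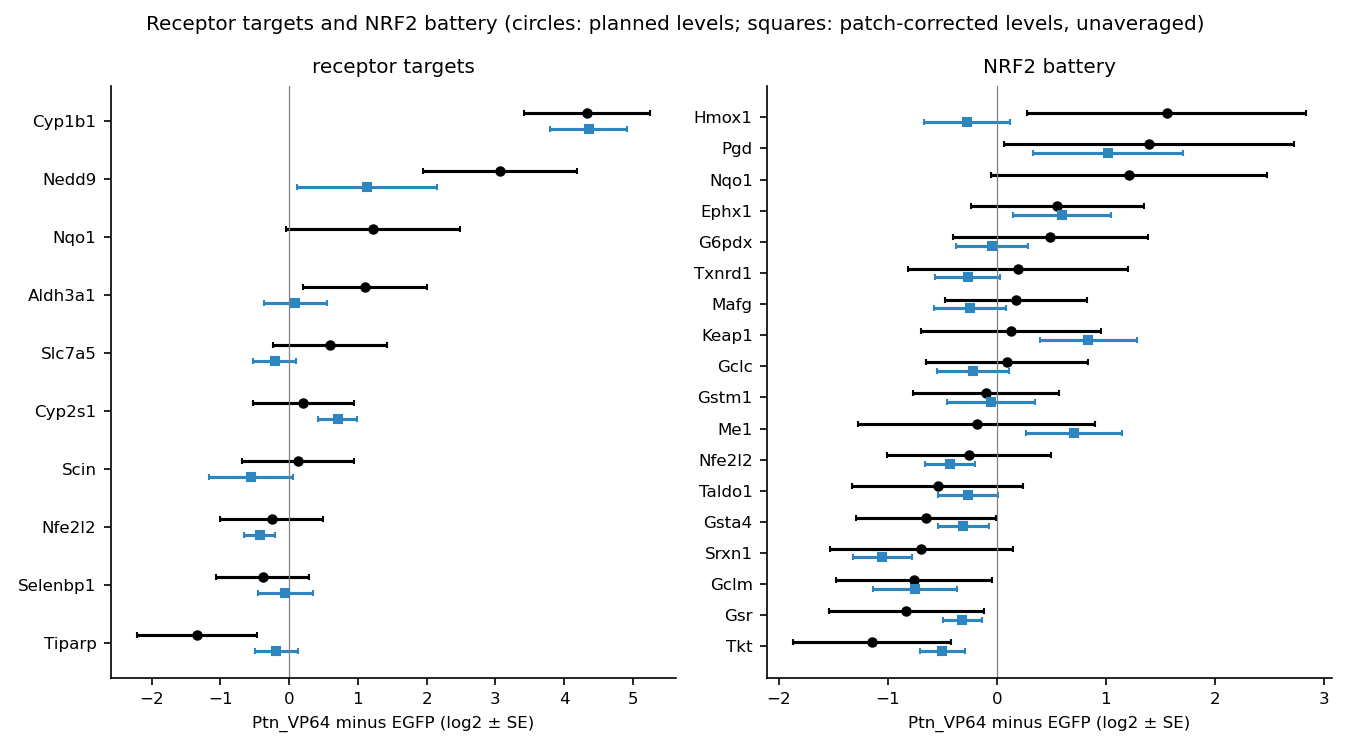
Differences of Ptn_VP64 from EGFP (x axis, log2 ± SE) for the tested genes of 2 lists (y axis), the receptor targets and the NRF2 battery; circles are the planned test and squares the patch-corrected, unaveraged test. Cyp1b1 is at 4.33 and 4.36, Nedd9 at 3.07 and 1.14, and the planned medians are 0.21 for the receptor targets without Cyp1b1 and -0.00037 for the NRF2 battery.

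Other pathways that share parts with the receptor gave no call in the planned test, where 0% of all genes were called and 55.5% were higher. Among HIF partners and targets 8 of 12 were higher, with a median of 0.04. Hif1a, the hypoxia factor itself, was at 0.91 ± 0.72, Egln3, a prolyl hydroxylase that marks it for degradation, at -0.77 ± 0.67, and Adm, adrenomedullin, at 0.77 ± 0.72. After patch correction 5 of 11 were higher and none was called, against 3.22% of all genes, with Ankrd37, a hypoxia target, at 0.78 ± 0.21 (limma adjusted p = 0.0868). In the bHLH-PAS family 4 of 12 were higher, with a median of -0.14, and the clock gene Per1 had the smallest p, at 1.37 ± 0.83 (adjusted p = 1.00). Ahr, for which no direction is given, is among the 4 higher. After patch correction 6 of 12 were higher, with a median of 0.04 and none called. Of the enzymes that make receptor ligands from tryptophan, 2 of 5 were higher. Ido2 was at -1.19 ± 0.85 and Kyat1 at 1.19 ± 1.17. Kyat3 was at -0.95 ± 0.60 and, after patch correction, at -0.99 ± 0.27 (limma adjusted p = 0.0752).

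Of 9 tested P450 enzymes and partners outside the receptor targets, 5 were higher and 4 lower in both tests, and Cyp26a1 was the 1 gene called, after patch correction. Cyp26a1, the enzyme that degrades retinoic acid, was higher in Ptn_VP64 by 2.36 ± 0.37 (limma adjusted p = 0.00776), with 2 Ptn_VP64 arrays and 4 EGFP arrays, where 3.22% of all genes were called. In the planned test it was at 0.86 ± 0.85 (limma adjusted p = 1.00). Leaving out 1 array at a time kept the patch-corrected call in 15 of 16 fits. That count is no measure of its stability, since the Ptn_DEL and Ptn_Delta arrays enter only through the slide term and the shared spread. The 1 fit without a call lacked Ptn_VP64 replicate 1, so 1 Ptn_VP64 array was left, and the difference was 1.77. The test is the one whose p-values are too small. Por, the reductase on which P450 enzymes depend, was at -0.38 ± 0.82. Cyp27a1, the sterol hydroxylase, was at -0.55 ± 0.63 in the planned test and at -0.95 ± 0.27 after patch correction (limma adjusted p = 0.0734).

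Marker levels of other cell types are given beside Cyp1b1, and their part in its level was not tested. In these bulk samples, more cells of a type and more RNA per cell cannot be told apart. All 8 tested trophoblast markers were higher in Ptn_VP64 than in EGFP, with a median of 3.41 and none called. Esx1 is in that count though it passed the filter through Ptn_VP64 alone. Krt18, a keratin of simple epithelia, was at 4.30 ± 1.22 (limma adjusted p = 0.923) and Gata3, a trophoblast transcription factor, at 2.97 ± 0.78 (adjusted p = 0.819). Esx1, a homeobox gene of the placenta, was at 2.75 ± 0.94. After patch correction all 6 tested were higher, with a median of 3.56 and none called. The log2 of the summed trophoblast signal had a median of 3.16 in EGFP (2.25 to 4.57), 6.62 in Ptn_VP64 (4.58 to 7.50), 4.93 in Ptn_DEL (3.74 to 5.65) and 5.65 in Ptn_Delta (3.87 to 6.05). The highest EGFP array lay just below the lowest Ptn_VP64 array, and the medians of both other groups lay between. That sum adds unlogged signal, so the brightest probes weigh most. In Ptn_VP64 the keratins Krt8 and Krt18 had mean levels of 4.88 and 4.78, against 1.13 for Gata3 and -1.27 for Cdx2. Cdx2 differed from EGFP by 0.99 ± 1.26 in the planned test. It was well above background on 2 arrays of Ptn_VP64, 3 of Ptn_DEL, 3 of Ptn_Delta and 0 of EGFP. Of the 10 markers Elf5 was not well above background on any array and Hand1 only on 1 of Ptn_VP64, so neither was tested. Esx1 was well above background on all 4 Ptn_VP64 arrays and on no other, so its place among the higher genes carries no weight.

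Fibroblast markers, which bear on Cyp1b1 as a gene of mesenchymal cells, were less even. In the planned test 5 of 6 were higher and none was called, with Col1a1, type I collagen, at 3.37 ± 1.07 (limma adjusted p = 1.00) and Col1a2 at 2.31 ± 0.90 (adjusted p = 1.00). Fbln1 was at -0.69 ± 0.63. The median was 0.57 in Ptn_VP64, 0.44 in Ptn_DEL with 6 of 6 higher, and 0.83 in Ptn_Delta with 4 of 6 higher. Of all genes 63.3% were higher in Ptn_DEL and 61.5% in Ptn_Delta, so higher levels in this test were not particular to Ptn_VP64. After patch correction 4 of 6 were higher in Ptn_VP64, and 2 of 6 in Ptn_DEL and in Ptn_Delta. The summed signal had a median of 2.06 in EGFP (0.99 to 2.52), 2.87 in Ptn_VP64 (2.08 to 3.19), 2.07 in Ptn_DEL (1.72 to 2.58) and 2.43 in Ptn_Delta (1.99 to 3.18), and all groups overlapped. Of the 12 markers, Pdgfrb, Postn and Prrx1 were not well above background on any array, and Dcn, Lum and Twist2 on no more than 2. Col1a1 was well above background on 4 arrays of Ptn_VP64, 1 of EGFP, 2 of Ptn_DEL and 1 of Ptn_Delta.

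Of the endoderm markers, 5 of 8 tested were higher and none was called in the planned test. Dab2, an endocytic adaptor of extraembryonic endoderm, was at 2.65 ± 0.69 (limma adjusted p = 0.923), Sparc, a matrix protein, at 3.27 ± 1.64 and Foxa2, an endoderm transcription factor, at 0.95 ± 0.68. Dab2 was called after patch correction at 1.89 ± 0.44 (limma adjusted p = 0.0464), where 3.22% of all genes were called, and the call was kept in 4 of the 16 fits that left out 1 array, with adjusted p up to 0.154. Dab2 was well above background on 0 of 4 EGFP arrays, as were Foxa2, Col1a2, Esx1, Cdx2 and Adm, so these differences are no measure of fold. Of the neural markers 3 of 6 were higher and none was called, with Sox1 at -2.92 ± 0.81 (limma adjusted p = 0.919) and Nes at 1.75 ± 1.16. Of the 10 ES cell markers 2 were higher and 8 lower, with a median of -0.55 and none called. The counts were the same in Ptn_DEL, with a median of -0.48, and in Ptn_Delta, with a median of -0.82. After patch correction 1 of 8 was higher in Ptn_VP64, 1 of 8 in Ptn_DEL and 0 of 8 in Ptn_Delta. Lower levels than in the shared EGFP arrays were thus not particular to Ptn_VP64. Fgf4, a growth factor gene of ES cells, was at -1.66 ± 1.10, Dppa5a at -0.80 ± 0.73 and Nanog at -1.10 ± 1.24. The summed ES cell signal had medians of 9.21 in EGFP, 8.96 in Ptn_VP64, 9.15 in Ptn_DEL and 9.01 in Ptn_Delta, and the groups overlapped.

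The likeness of other genes to Cyp1b1 was described over the arrays. Over patch-corrected levels, 3029 genes had a value on at least 12 of the 13 arrays that gave Cyp1b1, and their median Pearson r with it was 0.05. The 5 highest were Bmp8b (r = 0.966, 13 arrays), Anxa2 (0.964, 12 arrays), Pygl (0.953, 12 arrays), Pls1 (0.952, 13 arrays) and Gpat3 (0.951, 13 arrays). These r are a description, since the arrays share slides and patches and only 2 Ptn_VP64 arrays gave Cyp1b1 a value. Bmp8b, a growth factor of the BMP family, had a mean level of 0.73 ± 0.91 in Ptn_VP64 (SD, n = 4) against -2.12 ± 0.24 in EGFP (n = 4). Anxa2, a calcium-dependent membrane-binding protein, had 5.40 ± 0.45 (n = 3) against 3.39 ± 0.06 (n = 3). Arnt, the 1 other gene of the pathway with enough arrays, had r = -0.13 over 12 arrays, and Ahr and Tiparp had too few arrays to be compared.

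**Figure D5:**
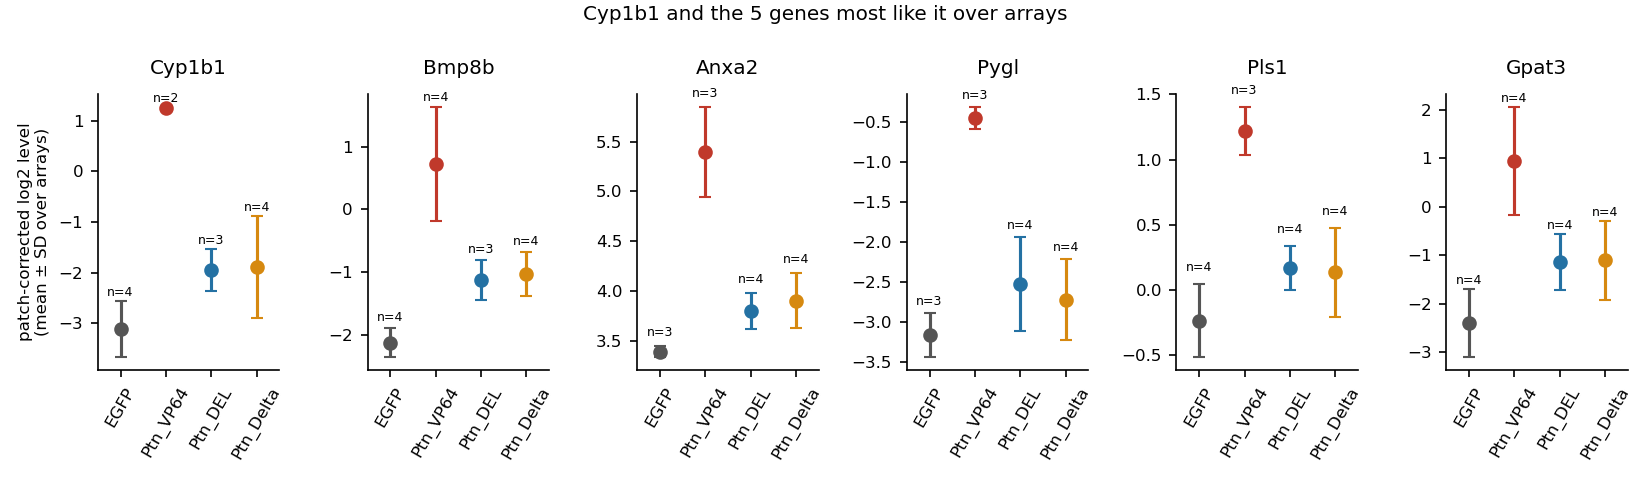
Patch-corrected log2 levels (y axis, mean ± SD over arrays, n at each point) of Cyp1b1 and the 5 genes with the highest Pearson r with it, by group (x axis). The genes were picked for following Cyp1b1, so the order of their groups follows from that choice; Bmp8b, for example, has means of 0.73 and -2.12 in the outer groups.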

How the data were processed

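The authors deposited 1 Agilent Feature Extraction 11.5.1.1 table per array; its processed signal is a background-subtracted intensity, per the file headers, on a design annotated on mm9. The deposited series values are log2 and quantile-normalized, as their identical quantiles show, and served as an alternative.

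Levels were log2 processed signal minus that of the 75th percentile over 59305 non-control spots. Spots that the software marked as uneven or as outliers were dropped. Kept were probes with a signal well above background on 4 or more of 16 arrays, each gene by its brightest probe (12881 genes). Genes were named through RefSeq accessions. Fits used limma 3.58.1 in R 4.3.3 (2-sided, all 4 groups) and were tested on simulated data. The slide was a term in the pairing that did not cancel it. Difference and SE come from the pairing with the largest p. Patch correction subtracted the median shift within 21 by 21 spots, dropped spots whose shift lay over 1 log2 unit from the median of their array, and required 2 arrays in every group.

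Normexp used the median spot signal, since the planned mean signal was not used here. Nothing says that replicates came from separate cultures, so p-values measure only the spread between these samples. The 7 genes, the 12 lists and the naming rule (the 3 smallest p of a list, and the 5 genes most like Cyp1b1) were chosen with earlier results of these data known; patch correction was devised after the data had been seen. Some genes that the naming rule or the lists would give are not reported here.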

Additional observations from a re-analysis of the deposited data

Results flagged for a closer look

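Within groups of 4 arrays, 6 of 44 groups of probe levels had 1 array far from the others by Dixon's criterion. Chance alone gives about 1 in 20 for independent groups, but these share arrays and are not independent. Cyp1a1 was at -2.16 on Ptn_DEL replicate 2, against -4.91 to -4.60 on the other 3 arrays, and at -0.99 on Ptn_Delta replicate 2, against -5.23 to -4.67. The Ahrr probe A_55_P2128388 was at -2.02 on Ptn_DEL replicate 2 and at -0.99 on Ptn_Delta replicate 2, against -4.91 to -4.58 and -5.23 to -4.76 on the others. None of these spots was well above background. Nqo1 was at -0.38 on Ptn_Delta replicate 3, against 2.85 to 3.02. The Tiparp probe A_55_P1985890 was at 1.02 on Ptn_VP64 replicate 2, against 3.25 to 3.42 on the other 3 arrays. This Tiparp spot and the Nqo1 spot lay in patches, and their patch-corrected levels were 2.82 and 1.48.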

How the results depend on the processing

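The count of called pathway genes besides Cyp1b1 was 0 in all 180 alternatives, which are 30 settings in each of 6 comparisons. Many of these settings called no gene at all, so a count of 0 was fixed there and is no measure of stability. The most calls over all genes were 664 of 11283, between Ptn_VP64 and EGFP with the replicate block and patch correction. The Cyp1b1 difference of Ptn_VP64 from EGFP stayed above 0 in its 30 alternatives, from 2.75 to 4.94. Of 512 member differences under alternatives, 447 kept their direction and side of the threshold or, for Cyp1b1 in comparisons with Ptn_VP64, moved by less than 1 SD. The other 65 are given here as log2 differences from EGFP unless 2 constructs are named; the sign had turned in all but the Cyp1b1 values of comparisons with Ptn_VP64, which had moved by more than 1 SD, none was called, and the cause was not tested. With marked spots kept, values were Ahr -0.12 and Nqo1 -1.36 in Ptn_VP64, Ahr -0.34 in Ptn_DEL, Ahr -0.37 and Nqo1 0.36 in Ptn_Delta, Cyp1b1 2.22 in Ptn_VP64 minus Ptn_DEL. With patch correction in the planned test, values were Ahr -0.62 in Ptn_VP64, Arnt -0.030 in Ptn_DEL, Arnt -0.10 and Tiparp 0.029 in Ptn_Delta. With patch correction and unaveraged arrays, values were Arnt -0.030 and Tiparp 0.070 in Ptn_DEL, Arnt -0.10 and Tiparp 0.14 in Ptn_Delta, Cyp1b1 -0.016 in Ptn_DEL minus Ptn_Delta. With unaveraged arrays, the value was Nqo1 0.79 in Ptn_Delta. With the replicate block, values were Tiparp 0.21 in Ptn_DEL, Nqo1 0.44 in Ptn_Delta, Cyp1b1 -0.16 in Ptn_DEL minus Ptn_Delta. With the replicate block and patch correction, values were Arnt -0.030 and Tiparp 0.048 in Ptn_DEL, Arnt -0.10 and Tiparp 0.23 in Ptn_Delta, Cyp1b1 -0.19 in Ptn_DEL minus Ptn_Delta. With normexp and quantile normalization, values were Cyp1b1 2.75 and Nqo1 -0.22 in Ptn_VP64, Arnt -0.12 in Ptn_DEL, Arnt -0.056 and Nqo1 0.59 in Ptn_Delta, Cyp1b1 2.57 in Ptn_VP64 minus Ptn_DEL, Cyp1b1 -0.26 in Ptn_DEL minus Ptn_Delta. From the deposited series, values were Arnt -0.12 in Ptn_DEL, Nqo1 0.38 in Ptn_Delta. With the mean of all probes, values were Arnt -0.83 in Ptn_DEL, Arnt -0.28 and Tiparp 0.029 in Ptn_Delta. Within slide 1, values were Arnt -0.076 in Ptn_DEL, Nqo1 0.39 and Tiparp 0.80 in Ptn_Delta. Within slide 2, values were Arnt 0.20 in Ptn_VP64, Tiparp 0.089 in Ptn_DEL, Cyp1b1 -0.36 in Ptn_DEL minus Ptn_Delta. Within slide 1 after patch correction, the value was Tiparp 0.28 in Ptn_Delta. Within slide 2 after patch correction, values were Ahr -0.70 and Arnt 0.0031 in Ptn_VP64, Ahr -1.34, Arnt -0.12, Tiparp 0.035 in Ptn_DEL, Ahr -1.26, Arnt -0.23, Tiparp 0.040 in Ptn_Delta, Cyp1b1 -0.10 in Ptn_DEL minus Ptn_Delta. Leaving out 1 array at a time gave ranges of -1.34 to 1.55 for Nqo1 in Ptn_VP64, -0.041 to 0.25 for Arnt in Ptn_DEL, -0.36 to 0.22 for Tiparp in Ptn_DEL, -0.53 to 0.39 for Nqo1 in Ptn_Delta, -1.67 to 0.021 for Tiparp in Ptn_Delta and -0.36 to 0.35 for Cyp1b1 in Ptn_DEL minus Ptn_Delta. The slide-by-slide fits were added after the data had been seen. The 0 genes called between Ptn_VP64 and EGFP over all genes became 2 with patch correction, 4 with unaveraged arrays, 49 with the replicate block, 363 with patch correction and unaveraged arrays, and 664 with the replicate block and patch correction. The numbers were to count as pairing only if every same-numbered pair correlated over 0.1 in its deviations from group means. Of 24 such pairs 15 did (r from -0.07 to 0.47), against 7 of 72 differently numbered pairs (-0.35 to 0.19), so the replicate block stayed an alternative. For the 363, leaving out 1 array gave 136 calls without Ptn_VP64 replicate 3, 170 without Ptn_VP64 replicate 1, and 255 to 341 without any other. The median difference of all genes was 0.07 in the planned comparison, -0.26 within slide 1 and 0.29 within slide 2. Signal over background was the limit for Cyp1a1 and Ahrr on all arrays and for Cyp1b1 in EGFP.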

Other observations

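The genes that lie next to Cyp1b1 on the chromosome were looked up after its values had been seen, in their RefSeq order. Rmdn2, the nearest on one side, differed between Ptn_VP64 and EGFP by 0.83 ± 1.01 log2 units in the planned test and 0.09 ± 0.33 after patch correction (limma adjusted p = 1.00 and 0.936). Atl2, the nearest on the other side, an atlastin that shapes the endoplasmic reticulum, differed by 1.42 ± 1.27 and -0.19 ± 0.29 (limma adjusted p = 1.00 and 0.814). Cdc42ep3, the next gene beyond Rmdn2, differed by 1.07 ± 0.62 and 0.35 ± 0.24 (limma adjusted p = 1.00 and 0.531). None of these 3 neighbours was called, where 0% of all genes were called in the planned test and 3.22% after patch correction. Farther out, Prkd3 differed by 1.32 ± 1.01 in the planned test and 0.78 ± 0.44 after patch correction. Qpct differed by 0.15 ± 0.78 and 0.37 ± 0.37, and Hnrnpll by -0.26 ± 0.78 and 0.22 ± 0.23. Galm was at -1.33 ± 1.13 in the planned test. None of these was called either, and a change of the region as a whole was not tested.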
